A study of Mus musculus with 69 samples.

Results

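Levels of 10 mouse genes for cyclic nucleotide phosphodiesterases (Pde1a, Pde1b, Pde1c, Pde2a, Pde4a, Pde4b, Pde4d, Pde7b, Pde8b and Pde10a) were followed in RNA and in chromatin of the nucleus accumbens. The members were taken by symbol from a count table of 52636 gene rows and by gene name from the 2 deposited lists of H3K79me2 peaks. Of the 10, 9 passed the filter on low counts and stood among the 14016 genes tested. The 10 genes held 557 of the 117819 distinct peaks of the Standard list and 426 of the 106374 of the ELS list. Pde10a, Pde1b and Pde7b are known for their enrichment in medium spiny neurons, the projection neurons that make up most of the striatum, and form the medium spiny neuron class. The other 7 form the broad class, which is a name for the remaining members, since breadth of expression was not measured here. Pde2a and Pde8b were also placed in the medium spiny neuron class as an alternative.

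Cyclic nucleotide phosphodiesterases hydrolyse cAMP and cGMP, the second messengers that carry dopamine, adenosine and nitric oxide signals into striatal neurons, and so end those signals. The PDE1 enzymes are switched on by calcium and calmodulin, PDE2A and PDE10A act on both cyclic nucleotides, PDE2A being stimulated by cGMP, and the PDE4, PDE7 and PDE8 enzymes prefer cAMP. Dimethylation of histone H3 at lysine 79 (H3K79me2) is laid down by DOT1L and typically lies over the start-proximal part of transcribed genes.

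The study asked how early life stress (ELS) acts on H3K79 methylation in medium spiny neurons of the D2 type and on the transcription downstream of it. All samples came from nucleus accumbens of male mice. RNA was taken from whole tissue in 32 libraries, 8 each of Standard rearing with GFP, ELS with GFP, Standard rearing with Dot1l overexpression and ELS with Dot1l knockdown. Chromatin immunoprecipitation of H3K79me2 was labelled for 9 Standard and 9 ELS libraries, with 9 and 10 inputs, and reached these data as 1 peak list per rearing group. The labels name no age, strain, vector, promoter or cell type for the GFP and Dot1l groups. Because the tissue is bulk, fewer cells of a type and less RNA per cell cannot be told apart.

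Libraries held 0.314 to 11.1 M counts (M, mega), and 4 were under 1 M: Standard GFP replicates 1, 4 and 5 and ELS Dot1l knockdown replicate 7. Dot1l, the gene the vectors were meant to move, averaged 33.9 ± 10.8 CPM (counts of the gene per M counts, SD, n = 8) in Standard GFP, 35.6 ± 11.4 in ELS GFP, 43.2 ± 19.04 in Standard Dot1l overexpression and 43.1 ± 15.2 in the libraries labelled ELS Dot1l knockdown. Its log2 difference was 0.33 ± 0.27 (SE) for overexpression against Standard GFP (adjusted p = 0.741, edgeR) and 0.28 ± 0.27 between ELS GFP and the libraries labelled knockdown, which were the higher ones (adjusted p = 0.985), so the Dot1l counts did not separate the groups as labelled. Markers of medium spiny neurons were present in every group, with summed levels of 757 to 3440 CPM over 19 genes in Standard GFP. Of the markers of other cell types, Gfap of astrocytes and P2ry12 of microglia were listed at 0 in all 4 groups. Their lists as a whole were present, with sums in Standard GFP of 1750 to 3270 CPM for astrocyte and 671 to 3990 for microglia markers. Why these 2 genes were at 0 was not tested.

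Pde10a, the dual-specificity enzyme of medium spiny neurons, ranged from 319 to 1015 CPM around a median of 462 in the Standard GFP libraries, and from 269 to 480 CPM around 331 in those of ELS GFP. Overexpression libraries ran from 194 to 994 CPM around a median of 324, and the libraries labelled knockdown from 225 to 615 CPM around 373. The highest Pde10a levels were those of Standard GFP replicate 8 and overexpression replicate 8, and the 4 groups overlapped. Pde10a was supported by 183 to 6369 counts per library.

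Pde1b, the calcium-dependent enzyme of the same neurons, was the most scattered of the 3 in Standard GFP, where it ran from 25.7 to 229 CPM around a median of 80.1. It lay between 42.1 and 141 CPM in ELS GFP (median 54.3), between 35.1 and 172 CPM under overexpression (median 50.6) and between 22.8 and 85.7 CPM in the libraries labelled knockdown (median 48.3). In ELS GFP and in the overexpression group a single library carried the upper end, replicate 2 and replicate 8 respectively, and all groups overlapped. Pde7b, a cAMP-specific enzyme with strong striatal expression, ranged from 96.5 to 318 CPM (median 155) in Standard GFP and from 80.1 to 215 CPM (median 127) in ELS GFP. It ranged from 63.6 to 263 CPM under overexpression (median 124) and from 85.1 to 383 CPM in the libraries labelled knockdown (median 120). Replicate 8 of the overexpression group again gave the highest value of its own group, as it did for Pde10a and Pde1b.

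Among the broad members, Pde4b, a cAMP-specific enzyme targeted by rolipram, was the one with every ELS GFP and overexpression library on one side of the Standard GFP median. Standard GFP libraries ranged from 387 to 648 CPM (median 498), ELS GFP from 259 to 482 (median 327), overexpression from 197 to 486 (median 343) and the libraries labelled knockdown from 251 to 555 (median 376). The ELS GFP and overexpression libraries, 8 of 8 in each group, were below that median, although the ranges overlapped. Both counts use the same Standard GFP libraries, and the share of all genes with such counts was not taken. Pde4b also had the smallest spread over Standard GFP of the 9 members, with a coefficient of variation of 17.8%.

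Pde4a, of the same family, averaged 84.8 ± 63.0 CPM in Standard GFP (SD, n = 8), 52.1 ± 9.98 in ELS GFP, 60.6 ± 50.4 under overexpression and 46.2 ± 9.24 in the libraries labelled knockdown. One library, Standard GFP replicate 6 at 225 CPM, held 33.1% of the Pde4a of its group. Pde4d, also of the PDE4 family, averaged 377 ± 211 CPM in Standard GFP, 379 ± 95.5 in ELS GFP, 326 ± 138 under overexpression and 315 ± 76.9 in the libraries labelled knockdown. Its Standard GFP range, 170 to 838 CPM, spanned all values of the other 3 groups except the lowest overexpression library at 140 CPM.

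Pde8b, a high-affinity cAMP-specific enzyme, averaged 121 ± 44.8 CPM in Standard GFP, 91.5 ± 31.3 in ELS GFP, 86.0 ± 20.6 under overexpression and 91.6 ± 44.6 in the libraries labelled knockdown. Pde1a, another calcium-dependent enzyme, had medians of 146 and 208 CPM in the Standard GFP and ELS GFP groups, but means of 193 ± 94.2 and 187 ± 78.1. Overexpression and knockdown-labelled libraries had Pde1a medians of 124 and 135 CPM. The calcium-dependent Pde1c had the largest coefficient of variation of the 9 members in Standard GFP, 92.4%, with a range of 5.28 to 195 CPM, and replicate 5 held 3 Pde1c counts. Standard GFP replicate 6 gave the highest value of Pde1b, Pde1c, Pde4a and Pde4d in its group. Levels were compared within a gene only, since counts were not corrected for transcript length.

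Pde2a, the cGMP-stimulated enzyme, could not be followed in RNA. Its symbol belongs to ENSMUSG00000110195, which had 0 counts in all 32 libraries. The peak lists pair Pde2a with a different identifier, ENSMUSG00000030653, which the symbol table names Gm45837 and which held 402 counts over the 32 libraries, between 0 and 46 per library. Of 2228 coding genes with at least as much H3K79me2 length as Pde2a in the Standard list, 84 were also at 0 counts.

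**Figure D1:**
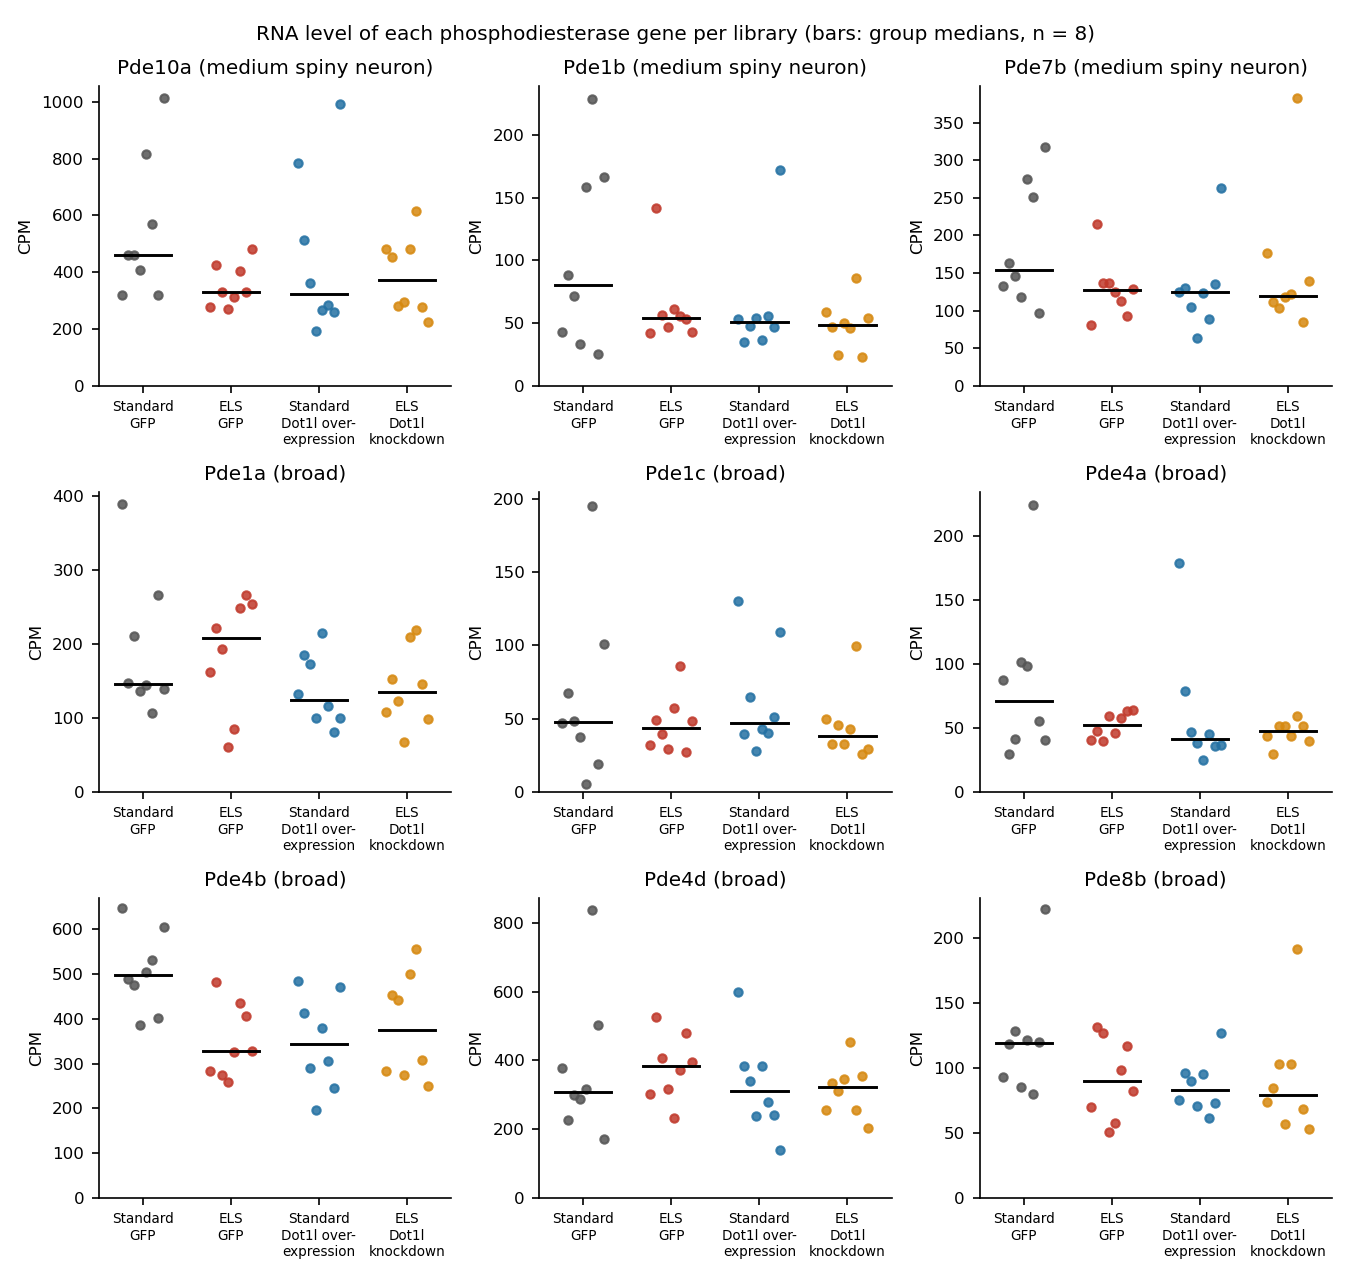
RNA level of the 9 counted phosphodiesterase genes in CPM (y axis, linear, own scale per gene), 1 point per library, with a bar at the median of the 8 libraries of each group. Of the 9 genes, Pde4b is the one whose ELS GFP and overexpression libraries all lie below the Standard GFP median, a pattern not counted over all genes. Single high libraries stand out in Pde1b, Pde4a and Pde7b.

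Under ELS with the control vector, the 3 medium spiny neuron members and most broad members had lower mean levels, with log2 differences of -0.72 to -0.41 for 7 genes. Pde4b stood at -0.53 ± 0.20 (SE), Pde10a at -0.63 ± 0.29, Pde1b at -0.72 ± 0.38 and Pde4a at -0.69 ± 0.34. Pde1a (-0.05) and Pde4d (0.00) were nearly level. No member passed the threshold: 0 of 9 had an adjusted p under 0.05 (edgeR quasi-likelihood test, Benjamini-Hochberg over all genes), as did 0.0% of the 14016 genes tested. At an unadjusted p under 0.05 there were 2 of 9, Pde10a and Pde4b, both lower, against 11.7% of all genes. DESeq2 and limma voom also called 0 members and put 3 and 5 at an unadjusted p under 0.05. The share of all genes at that level was taken with edgeR only, so these counts have no background beside them.

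Pde4b had the smallest adjusted p in this comparison, 0.224 with edgeR, and lay below the Standard GFP median in 8 of 8 ELS GFP libraries. The interval of 2 SE on each side of its log2 difference ran from -0.93 to -0.14. Pde4a was also below the Standard GFP median in 8 of 8 ELS GFP libraries, at an adjusted p of 0.427 (edgeR). How many of all genes have such counts of libraries was not taken. The Pde4a value was -0.084 with limma voom, which gives less weight to libraries that stand apart, and -0.27 with the number in the library titles as a factor. Without Standard GFP replicate 6, the log2 difference was -0.27 for Pde4a, -0.44 for Pde1b and -0.06 for Pde1c. Pde10a lay below the Standard GFP median in 7 of 8 libraries and had an adjusted p of 0.366 (edgeR). Pde8b, at -0.41 ± 0.25, stood at -0.22 without Standard GFP replicate 8 and at -0.71 with limma voom. Pde1c, at -0.53, stood at -0.35 with the title number as a factor and at -0.90 without the libraries under 1 M counts. Pde1a had a higher median in ELS GFP (log2 ratio of medians 0.51) while its fitted difference was -0.05, and 6 of 8 ELS GFP libraries were above the Standard GFP median.

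The 9 counted members had a median log2 difference of -0.53, with 8 lower and 1 higher, beside a median of -0.01 over all genes tested. Markers of several cell types stood lower in the same libraries. Of 18 tested medium spiny neuron markers 15 were lower, with a median of -0.78, and their summed level ran from 757 to 3440 CPM in Standard GFP against 929 to 3270 in the ELS GFP libraries. Of 9 tested astrocyte markers all were lower, with a median of -0.65 and summed levels of 1750 to 3270 against 1120 to 2600 CPM. Of 9 tested microglia markers all were lower (median -0.65, 671 to 3990 against 743 to 1890 CPM), and of 10 oligodendrocyte markers 9 were lower (median -0.52, 567 to 1030 against 402 to 1080 CPM). Other lists were not lower on the whole. Of 6 cortical excitatory neuron markers 4 were higher (median 0.18, 68.1 to 266 against 86.4 to 274 CPM), of 5 endothelial markers 4 were higher (median 0.33, 47.8 to 127 against 51.2 to 143 CPM), and of 5 interneuron markers 3 were lower (median -0.04, 5.28 to 201 against 37.0 to 63.6 CPM). Medians of the summed level in Standard GFP and ELS GFP were 1690 and 1250 CPM for medium spiny neuron markers. They were 1970 and 1700 CPM for astrocyte, 1260 and 974 for microglia and 911 and 612 for oligodendrocyte markers. For cortical excitatory neuron markers they were 212 and 195 CPM, for interneuron markers 40.2 and 46.6 and for endothelial markers 75.9 and 112. The part of these markers in the phosphodiesterase values was not tested.

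In the libraries labelled Standard Dot1l overexpression, all 9 counted members had a fitted level below Standard GFP, by log2 differences of -0.71 to -0.07. Overexpression names the label throughout, since Dot1l had a log2 ratio of medians of 0.06, with 4 of 8 libraries above the Standard GFP median. Pde4b differed by -0.54 ± 0.20 (SE), Pde8b by -0.50 ± 0.25, Pde7b by -0.54 ± 0.29 and Pde1b by -0.71 ± 0.38. Pde10a differed by -0.26 ± 0.29 in the fit and by -0.51 as a log2 ratio of medians. Again 0 of 9 members passed an adjusted p of 0.05 (edgeR), beside 0.0% of all genes. Pde4b and Pde8b, 2 of 9 and both lower, had an unadjusted p under 0.05 (edgeR), against 10.9% of all genes. DESeq2 and limma voom called 0 members, with 3 and 4 under that level, again without a share over all genes.

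Pde4b was below the Standard GFP median in 8 of 8 overexpression libraries (adjusted p = 0.263, edgeR), and Pde8b, Pde7b and Pde1b in 7 of 8 each. Here too such counts were not taken over all genes. Pde10a was below it in 5 of 8, since replicate 8 of the group stood at 994 CPM and 3 libraries in all were above. Leaving out that library gave a Pde10a log2 difference of -0.52, and leaving out Standard GFP replicate 8 gave -0.06. The Pde4a value, -0.48, was -0.21 with limma voom and lay between -0.94 without overexpression replicate 1 and -0.05 without Standard GFP replicate 6. Pde1b lay between -1.12 without overexpression replicate 8 and -0.42 without Standard GFP replicate 6. Pde1a, at -0.49, stood at -0.24 without Standard GFP replicate 1, and Pde8b stood at -0.31 without Standard GFP replicate 8.

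The median over the 9 members was -0.49 under overexpression, beside 0.02 over all genes. Medium spiny neuron markers were lower for 15 of 18 genes (median -0.40, summed level 792 to 3430 CPM), oligodendrocyte markers for 10 of 10 (median -0.42, 423 to 868 CPM) and astrocyte markers for 6 of 9 (median -0.01, 1570 to 3630 CPM). Microglia markers were lower for 6 of 9 (median -0.30, 756 to 2360 CPM), interneuron markers for 3 of 5 (median -0.10, 32.4 to 64.2 CPM) and endothelial markers for 3 of 5 (median -0.02, 55.8 to 127 CPM). Cortical excitatory neuron markers were higher for 4 of 6 (median 0.40, 92.3 to 499 CPM). The part of these markers was not tested here either. The ELS and overexpression comparisons share the 8 Standard GFP libraries, so their values for the members are not independent.

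In the libraries labelled ELS Dot1l knockdown against ELS GFP, member differences were small and of both signs, 5 lower and 4 higher with a median of -0.03. Pde7b stood at 0.28 ± 0.29 (SE), Pde10a at 0.14 ± 0.28 and Pde4b at 0.13 ± 0.20. Pde1a stood at -0.41 ± 0.29, Pde1b at -0.34 ± 0.37, Pde4d at -0.27 ± 0.26, Pde4a at -0.18, Pde1c at -0.03 and Pde8b at 0.01. With edgeR no member had an adjusted p under 0.05, beside 0.0% of all genes. No member had an unadjusted p under 0.05 either, against 6.18% of all genes. DESeq2 and limma voom likewise put no member under either level. The interval of 2 SE on each side ran from -0.43 to 0.71 for Pde10a and from -0.26 to 0.53 for Pde4b. In the same libraries 9 of 9 tested microglia markers were higher (median 0.48). Their summed level ran from 606 to 3080 CPM, against 743 to 1890 in ELS GFP. Endothelial markers were lower for 5 of 5 (median -0.52, 28.8 to 93.0 against 51.2 to 143 CPM). Medium spiny neuron markers were higher for 12 of 18 (median 0.07). Cortical excitatory neuron markers were higher for 4 of 6 (median 0.13) and astrocyte markers for 5 of 9 (median 0.11). Interneuron markers were lower for 4 of 5 (median -0.275) and oligodendrocyte markers for 5 of 10 (median -0.04). The part of these markers in the member values was not tested. This comparison shares the ELS GFP libraries with the ELS comparison and its direction rests on labels that Dot1l counts did not bear out.

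A test of any difference among the 4 groups (edgeR, 3 coefficients at once) called 0 of 9 members and 1.27% of all genes. It put 2 of 9, Pde4b (p = 0.025, adjusted p = 0.307, edgeR) and Pde1b (p = 0.0444, adjusted p = 0.384, edgeR), at an unadjusted p under 0.05, against 12.4% of all genes. DESeq2 and limma voom called 0 members in that test, with 3 each at an unadjusted p under 0.05, and no share over all genes was taken with them.

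**Figure D2:**
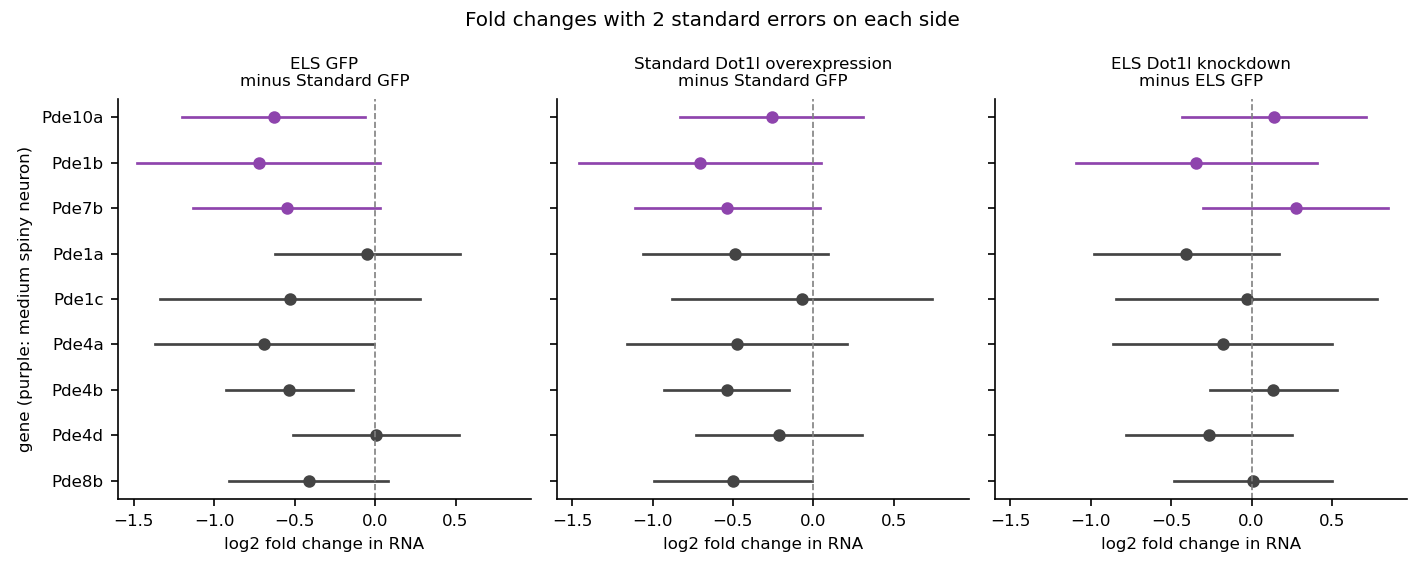
Log2 fold change in RNA (x axis) of the 9 counted genes in the 3 comparisons, with lines of 2 standard errors on each side of the point. Points lie below 0 for 8 genes in the first panel, where Pde4d is at 0.00, and for 9 in the second, and on both sides of 0 in the last.

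The medium spiny neuron members and the broad members were set side by side in each comparison. The 3 medium spiny neuron members had a median log2 difference of -0.63 under ELS, -0.54 under overexpression and 0.14 in the libraries labelled knockdown. The 6 counted broad members had medians of -0.47, -0.48 and -0.10. The class medians thus differed by -0.16, -0.06 and 0.24 in log2, which is given as a description with no test. With Pde8b and the uncounted Pde2a moved to the medium spiny neuron class, the medians were -0.59 and -0.53 under ELS, -0.52 and -0.48 under overexpression and 0.07 and -0.18 in the libraries labelled knockdown. Within a library, the class difference ran from -0.58 to 1.61 over Standard GFP and from -0.33 to 0.55 over ELS GFP.

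Likeness to Pde10a was then described across libraries. Log2 CPM after subtraction of group means was compared over 32 libraries, which share depth and tissue composition, and is described without a test. The 5 genes most like Pde10a among 7171 ranked genes were Rgs9 (r = 0.88), which ends G protein signals in striatal neurons, Phactr1 (0.82), a regulator of actin and of protein phosphatase 1, Kctd8 (0.80), an auxiliary subunit of GABA-B receptors, Drd2 (0.79), the dopamine D2 receptor, and Ypel2 (0.77). Pde7b had r = 0.73 and rank 16, and Pde1b had r = 0.62 and rank 68. Without the 2 libraries farthest from the Pde10a median, r was 0.83 for Rgs9, 0.73 for Drd2, 0.63 for Pde7b and 0.49 for Pde1b.

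Among the broad members, Pde4b had r = 0.67 with Pde10a (rank 43) and Pde8b r = 0.56 (rank 140), and without those 2 libraries r was 0.64 and 0.44. The other broad members had r of 0.40 for Pde1c, 0.27 for Pde4a, 0.09 for Pde1a and -0.05 for Pde4d. Without the 2 libraries these became 0.29, 0.49, 0.22 and 0.35, so that their order rests on those libraries. In the libraries of at least 1 M counts r was 0.745 for Pde4b, 0.701 for Pde7b, 0.685 for Pde1c, 0.569 for Pde1b and 0.544 for Pde8b. It was 0.307 for Pde4a, 0.205 for Pde1a and -0.031 for Pde4d, so the order did not follow the classes. Pde1b and Pde7b had r = 0.79 with each other, and Pde4a and Pde4d had r = 0.60. The summed level of the medium spiny neuron markers had r = 0.77 with Pde10a, that of astrocyte and oligodendrocyte markers 0.46 each, that of microglia markers 0.14, and those of cortical excitatory neuron, interneuron and endothelial markers -0.13, -0.20 and -0.27.

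The other genes of the cyclic nucleotide pathway were split in direction. Of 72 other pathway genes on the lists, 63 were tested, and 0 passed an adjusted p of 0.05 in any of the 3 comparisons (edgeR, and likewise DESeq2 and limma voom). Under ELS 32 were lower and 31 higher with a median of -0.01, under overexpression 32 and 31 with a median of 0.00, and in the libraries labelled knockdown 38 and 25 with a median of -0.07. At an unadjusted p under 0.05 (edgeR) these were 4 lower and 2 higher under ELS, 5 and 2 under overexpression, and 1 and 1 in the libraries labelled knockdown. Of all genes tested, 11.7%, 10.9% and 6.18% were at that level in the 3 comparisons. The 11 tested phosphodiesterases outside the members had medians of 0.14, 0.16 and -0.43, and 5 of them were lower under ELS.

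Among cyclases, which make the second messengers, Gucy1a1, the alpha subunit of the nitric oxide receptor guanylate cyclase, averaged 35.0 ± 22.2 CPM in Standard GFP (SD, n = 8), 20.4 ± 6.19 in ELS GFP and 19.7 ± 6.20 under overexpression (log2 differences -0.77 and -0.82, adjusted p = 0.25 and 0.259 with edgeR). Adcy2, an adenylate cyclase, stood at 0.42 under ELS, with 1 of 8 ELS GFP libraries below the Standard GFP median. Among the effectors, Prkar2a, a regulatory subunit of protein kinase A, had the smallest p of the pathway under ELS, with 14.9 ± 4.58 CPM in Standard GFP and 35.0 ± 27.0 in ELS GFP (log2 1.15, adjusted p = 0.14, edgeR). Its log2 value was 0.77 under overexpression and -0.92 in the libraries labelled knockdown, and 1 ELS GFP library held 36.0% of the group's Prkar2a. Prkacb, a catalytic subunit of protein kinase A, stood at -0.51 under overexpression with 8 of 8 libraries below the Standard GFP median.

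Among partners that place the enzymes in the cell, Akap9, an anchoring protein of protein kinase A, averaged 207 ± 71.1 CPM in Standard GFP (SD, n = 8), 143 ± 17.2 in ELS GFP, 139 ± 23.3 under overexpression and 169 ± 36.2 in the libraries labelled knockdown. All 8 ELS GFP and all 8 overexpression libraries were below the Standard GFP median for Akap9, as for Pde4b (adjusted p = 0.164 and 0.175, edgeR). Akap9 and Prkacb were named for their small p in these comparisons, and such counts were not taken over all genes. Arpp19, a substrate of protein kinase A, stood at -0.64 and -0.87, with 1 Standard GFP library holding 37.3% of the group's level. Its log2 ratio of medians was 0.06 under ELS, with 3 of 8 ELS GFP libraries below the Standard GFP median, and -0.23 under overexpression, with 7 of 8 below. Pde3a, a phosphodiesterase inhibited by cGMP, stood at -1.26 under overexpression, with 62.5% of its Standard GFP level in 1 library and a log2 ratio of medians of -0.02.

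In chromatin, all 10 members carried H3K79me2 peaks in both lists, Pde2a included. In the Standard list Pde4b had 106 kb under 173 peaks, Pde8b 85.8 kb under 54, Pde7b 81.8 kb under 135 and Pde10a 74.5 kb under 78. Those 4 genes lay at or above the percentile 97.7 of covered length among 12673 genes with a peak. Pde4d had 26.7 kb, Pde2a 15.3 kb, Pde4a 10.1 kb, Pde1b 8.19 kb, Pde1a 6.29 kb and Pde1c 0.45 kb. As a share of the RefSeq span, cover was 37.9% for Pde8b, 30.3% for Pde1b, 24.9% for Pde7b, 21.3% for Pde4a, 20.5% for Pde4b, 16.8% for Pde2a and 16.1% for Pde10a. It was 2.05% for Pde4d, 1.74% for Pde1a and 0.11% for Pde1c. Both classes held members with long and with short cover.

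The ELS list held less length than the Standard list at 9 of the 10 members. Pde10a stood at 52.4 kb, Pde7b at 45.4 kb, Pde1b at 5.02 kb, Pde4b at 66.1 kb, Pde8b at 70.0 kb, Pde4a at 7.27 kb, Pde2a at 8.40 kb, Pde4d at 12.7 kb and Pde1a at 1.01 kb. Pde1c had 0.69 kb, more than in the Standard list, from 3 peaks against 2. The log2 ratio of ELS to Standard length was -2.64 for Pde1a, -1.08 for Pde4d, -0.86 for Pde2a, -0.85 for Pde7b, -0.71 for Pde1b, -0.69 for Pde4b, -0.51 for Pde10a, -0.48 for Pde4a, -0.29 for Pde8b and 0.60 for Pde1c.

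This was read against the whole lists. By at least 1.5-fold, 6 of 10 members were lower and 1 of 10, Pde1c, was higher. Of the 10879 genes with peaks in both lists, as all members had, 4210 were lower and 306 higher by that much. Over the 12673 genes with a peak in either list, which include genes marked in 1 list only, the shares were 44.4% and 5.38%. The ELS list was shorter at 91.5% of the 10879 genes with peaks in both, with a median log2 ratio of -0.45, against -0.70 over the members. The 3 medium spiny neuron members had a median of -0.71 and the 7 broad members -0.68. Among all genes the ratio of Pde10a ranked at the percentile 44.7, Pde1b at 31.0, Pde7b at 24.0, Pde4b at 32.1 and Pde1a at 1.0. The lists cover 126.1 and 92.62 Mb and have no replicates, so these ratios have no error and no test, and a difference in how much was called in each list cannot be told apart from a difference in the mark.

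**Figure D3:**
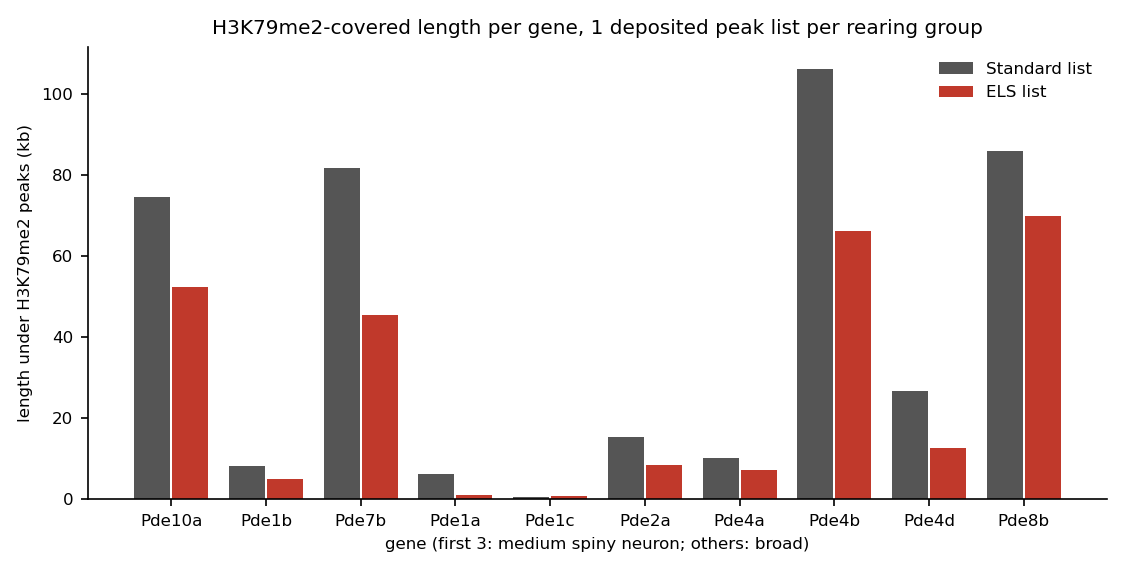
Length under H3K79me2 peaks in kb (y axis) for the 10 genes in the Standard list and the ELS list, 1 list per rearing group and so without error bars. The ELS bar is shorter for every gene except Pde1c, whose bars are at 0.45 and 0.69 kb.

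Of the members' 557 Standard peaks 52.8% overlapped an ELS peak by at least 1 bp, and of their 426 ELS peaks 85.9% overlapped a Standard peak. For all peaks the shares were 62.6% and 90.8%. Pde8b kept the largest share of its Standard peaks, 79.6%, followed by Pde1b at 72.7% and Pde10a at 60.3%, whereas Pde4d had 24.4%, Pde1a 15.0% and Pde1c 0.0%. The peak with the authors' highest fold enrichment among the members lay in Pde8b (Standard list, chr13:95182099-95184946, 3.03-fold). The highest-fold peaks of Pde10a were at chr17:8807578-8810634 in the Standard list (2.64-fold) and chr17:8830754-8832537 in the ELS list (2.27-fold), both inside the gene body on mm10. Pde4b had chr4:102263069-102267733 at 2.91-fold in the Standard list and chr4:102259867-102261317 at 2.66-fold in the ELS list. Pde4d had its top Standard peak, at 2.84-fold, 98.1% of the way along its span.

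Most member peaks were annotated in gene bodies. In the Standard list 15 of 78 Pde10a peaks carried a promoter annotation, 16 of 173 at Pde4b, 8 of 14 at Pde4a, 7 of 45 at Pde4d, 5 of 135 at Pde7b and 0 of 11 at Pde1b. In the ELS list the same counts were 15 of 72 at Pde10a, 10 of 135 at Pde4b, 7 of 15 at Pde4a, 5 of 24 at Pde4d, 1 of 86 at Pde7b and 0 of 9 at Pde1b. The share over all peaks of each list was not taken, so these counts have no background beside them. They rest on the lists' own annotation, and the RefSeq start of Pde1b at 103507126 lies inside a Standard peak all the same.

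Along the genes, the mark lay over different stretches. Each RefSeq span was divided into 10 equal parts from its 5′ end. Pde2a, Pde4a, Pde1b and Pde8b had their highest Standard cover in parts 1, 2, 3 and 3, at 74.7%, 91.7%, 85.7% and 91.8%. Pde10a had 0.0% in part 1 and 74.5% and 57.0% in parts 7 and 8, so that 8.5% of its cover fell in parts 1 to 5. Pde7b had separate stretches, 49.8% of part 1 and 61.7% of part 7. Pde4b was highest in part 5 (45.0%) with a further rise in part 10 (33.4%), and Pde4d was highest in part 10 (12.3%). The ELS list peaked in the same part for every member except Pde7b, where part 1 (35.1%) was highest.

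**Figure D4:**
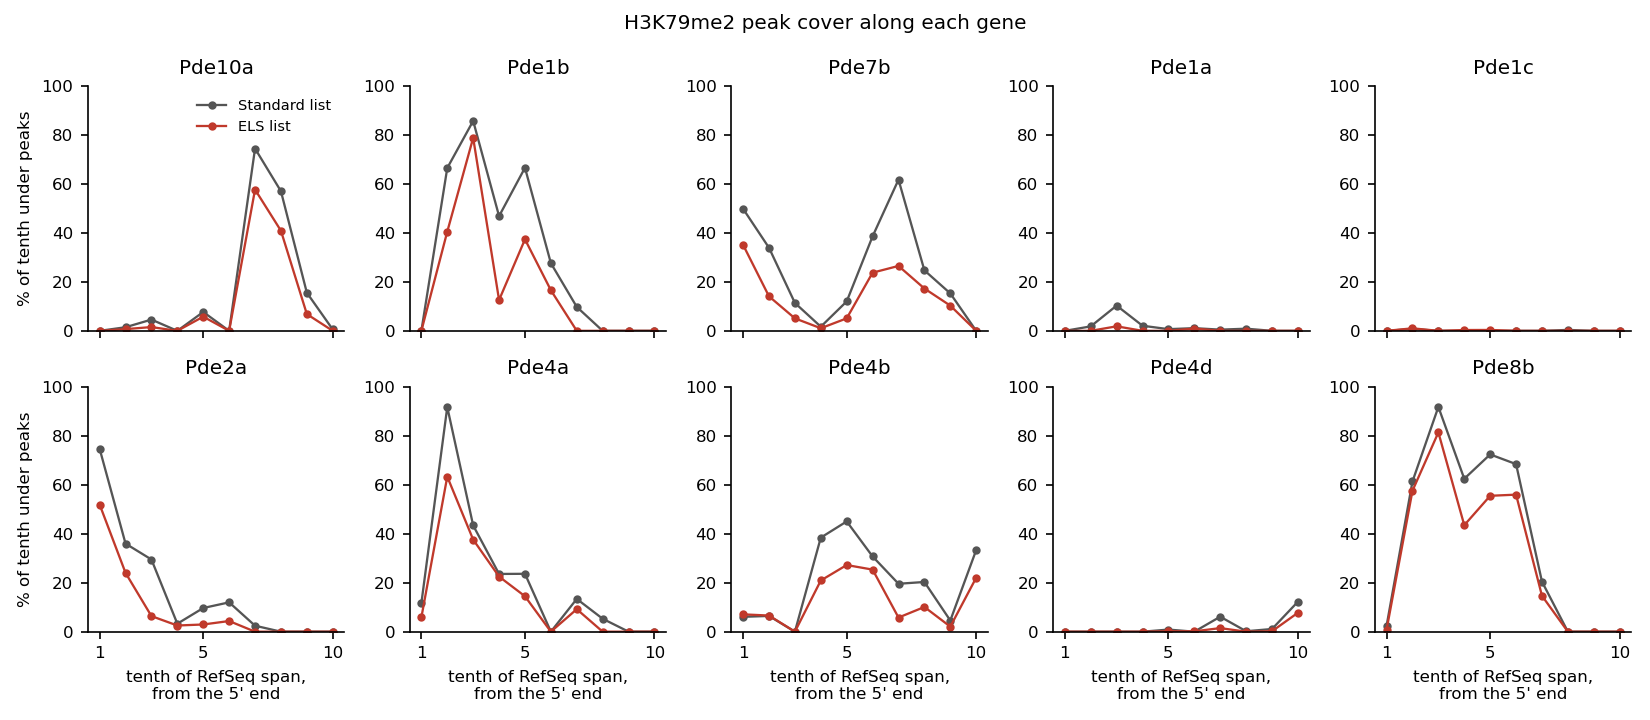
Share of each of 10 equal parts of the RefSeq span under H3K79me2 peaks (y axis, percent), numbered from the 5′ end (x axis) for the 10 genes, in the Standard and the ELS list. Cover is highest in parts 1 to 3 of Pde2a, Pde4a, Pde1b and Pde8b, in parts 7 and 8 of Pde10a and in part 10 of Pde4d.

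At 8 of the members, cover was higher in the 10 kb after than in the 10 kb before at least 1 RefSeq transcript start. The starts given below were chosen for their rise, so the rise itself is no result. Other starts of the same genes went both ways in the Standard list. Cover fell from 75.0% to 24.0% at the Pde10a start at 8849985 and from 35.6% to 14.6% at the Pde4a start at 21184101. It rose from 0.0% to 62.8% at the Pde8b start at 95223092. At Pde10a, whose span on chr17 runs from 8525187 to 8986648, the start at 8801745 had 0.0% of the 10 kb before it and 79.7% of the 10 kb after it under Standard peaks, and 0.0% and 64.5% under ELS peaks. The nearest peak began 904 bp downstream in the Standard list and 1669 bp downstream in the ELS list. At Pde8b the start at 95223050 of chr13 went from 0.0% before to 63.2% after, at Pde2a the start at 101421691 of chr7 from 0.0% to 75.3%, and at Pde4b the start at 102570060 of chr4 from 8.81% to 77.5%. Pde7b, at 20548328 of chr10, went from 19.8% to 53.7%, and Pde1b, at 103507126 of chr15, from 10.3% to 64.1%. Those starts of Pde4b and Pde1b lie inside a Standard peak. The only listed start of Pde4d had 0.0% on both sides, as had all 3 of Pde1c.

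Such a rise was common among marked genes. The rise from the 10 kb before to the 10 kb after was taken at the start of each gene where it was largest in the Standard list. It was at least 50 percentage points at 6 members (Pde10a, Pde2a, Pde4b, Pde8b, Pde4a and Pde1b) and at 70.1% of the 3542 genes with at least 5 kb under Standard peaks, whose median rise was 67.3 points. In the ELS list the rise at the same starts was 64.5 points for Pde10a, 59.7 for Pde8b, 53.4 for Pde2a, 47.6 for Pde4b, 40.2 for Pde1b, 34.9 for Pde4a, 18.3 for Pde7b and 3.9 for Pde1a. Over all 32851 RefSeq starts, marked or not, cover went from 5.45% to 12.4% in the Standard list and from 4.13% to 9.73% in the ELS list.

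**Figure D5:**
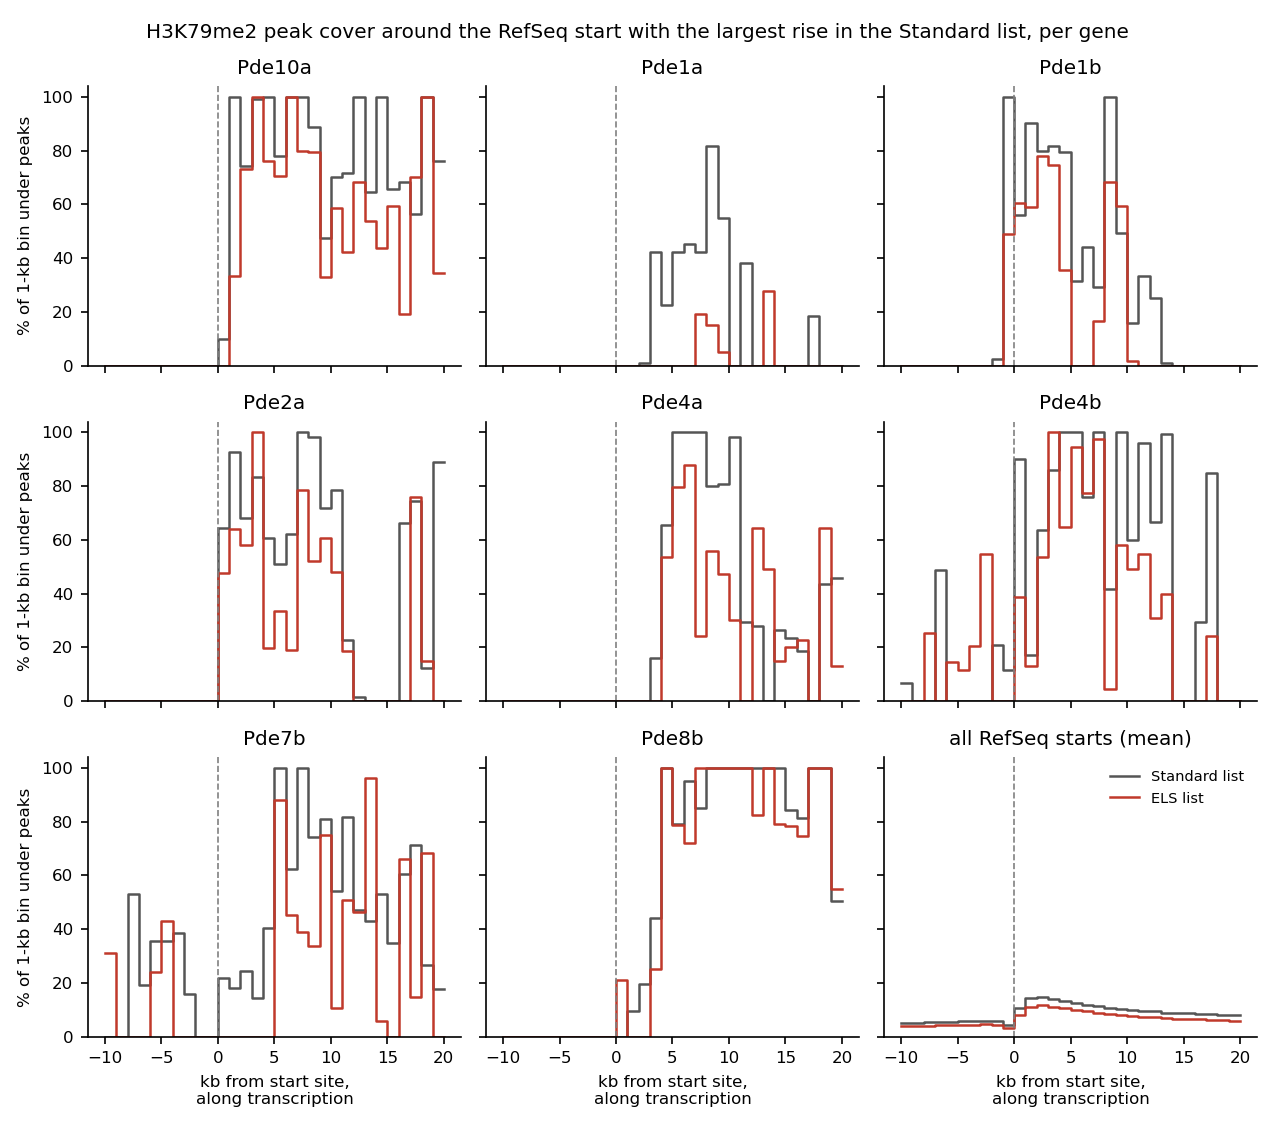
Share of each 1-kb bin under H3K79me2 peaks (y axis, percent) against distance from a transcript start in kb, along transcription (x axis), for the RefSeq start of each of 8 genes with the largest rise in the Standard list, and the mean over all 32851 RefSeq starts. At Pde10a and Pde8b no bin before the start is covered and most bins after it are, in both lists.

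The start windows are shown because they include the Pde10a start upstream of its stretch of peaks and starts that lie under a peak. Each window runs from 250 bases before to 50 bases after a start, is taken from RefSeq on GRCm38.p6 (mm10), lies on the + strand and is written 5′ to 3′, with bases under a Standard peak in capitals. The Pde10a window at chr17:8801495-8801794 has no base under a peak, 23 CpG and 71.3% G or C. That at chr17:8849735-8850034, among the peaks, has 226 bases under a Standard peak, 143 under an ELS peak and 5 CpG. The Pde1b window at chr15:103506876-103507175 is under a Standard peak throughout and under no ELS peak. The Pde4a window at chr9:21183851-21184150 has 146 bases under a Standard and 257 under an ELS peak, and the Pde4b window at chr4:102587308-102587607 has 300 and 242.
Pde10a, start upstream of the peaks: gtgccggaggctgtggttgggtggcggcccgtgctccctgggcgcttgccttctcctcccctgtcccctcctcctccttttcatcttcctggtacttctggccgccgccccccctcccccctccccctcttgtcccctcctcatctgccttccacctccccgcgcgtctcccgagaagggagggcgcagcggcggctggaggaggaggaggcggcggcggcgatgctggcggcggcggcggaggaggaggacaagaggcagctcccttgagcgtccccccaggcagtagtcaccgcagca
Pde10a, start among the peaks: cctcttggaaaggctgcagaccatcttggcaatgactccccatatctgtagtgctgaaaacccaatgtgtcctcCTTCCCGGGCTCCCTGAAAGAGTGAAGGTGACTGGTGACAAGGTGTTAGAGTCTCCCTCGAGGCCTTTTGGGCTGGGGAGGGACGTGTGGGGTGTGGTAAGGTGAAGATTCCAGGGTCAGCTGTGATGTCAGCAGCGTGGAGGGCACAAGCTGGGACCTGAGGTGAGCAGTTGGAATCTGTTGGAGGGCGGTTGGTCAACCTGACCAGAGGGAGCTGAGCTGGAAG
Pde1b: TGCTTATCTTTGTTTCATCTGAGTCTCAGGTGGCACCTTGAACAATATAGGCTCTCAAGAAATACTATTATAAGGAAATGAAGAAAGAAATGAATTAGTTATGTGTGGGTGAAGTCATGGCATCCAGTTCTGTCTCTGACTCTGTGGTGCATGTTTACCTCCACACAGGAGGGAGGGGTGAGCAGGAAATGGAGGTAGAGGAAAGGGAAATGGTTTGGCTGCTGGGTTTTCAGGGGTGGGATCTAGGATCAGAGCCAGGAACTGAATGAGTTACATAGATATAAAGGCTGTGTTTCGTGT
Pde4a: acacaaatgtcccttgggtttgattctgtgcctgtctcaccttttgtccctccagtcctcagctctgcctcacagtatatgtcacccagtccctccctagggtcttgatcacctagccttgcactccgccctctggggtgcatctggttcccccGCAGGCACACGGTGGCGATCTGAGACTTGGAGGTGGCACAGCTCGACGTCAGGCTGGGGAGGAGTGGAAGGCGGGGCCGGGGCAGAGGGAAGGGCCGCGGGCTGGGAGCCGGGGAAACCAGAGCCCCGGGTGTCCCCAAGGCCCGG
Pde4b: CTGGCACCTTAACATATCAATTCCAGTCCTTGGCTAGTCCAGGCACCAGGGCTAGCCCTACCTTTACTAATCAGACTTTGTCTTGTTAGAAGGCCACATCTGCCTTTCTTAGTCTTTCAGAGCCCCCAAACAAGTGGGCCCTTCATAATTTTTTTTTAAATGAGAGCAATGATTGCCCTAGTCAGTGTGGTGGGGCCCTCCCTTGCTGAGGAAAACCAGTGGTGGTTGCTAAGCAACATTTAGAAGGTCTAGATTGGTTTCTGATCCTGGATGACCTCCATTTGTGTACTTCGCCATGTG

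RefSeq listed 31 such windows for the 10 members. Of these 8 (25.8%) overlapped a Standard peak and 4 (12.9%) an ELS peak, beside 5.6% and 3.8% of all 32851 windows. All windows include those of genes without a peak, whereas all 10 members carry peaks, so these shares are not matched. The share among windows of marked genes was not taken. Windows of the same gene can overlap, as the Pde2a windows under a Standard peak do, so the windows are not independent. The letters of the cAMP response element, TGACGTCA, were searched on both strands, as were those of its shorter form TGACG, which every full element also contains. The full element was in 0 of 31 member windows and 1.79% of all windows, and TGACG was in 5 of 31 (16.1%) and in 20.8% of all windows. The 5 windows belonged to Pde1a, Pde2a, Pde4a, Pde4b and Pde8b.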

How the data were processed

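RNA was measured in 32 libraries and H3K79me2 in chromatin. Raw counts per Ensembl gene were deposited in 1 table. The peaks were deposited in 1 list per rearing group, where each peak has a q-value and a fold enrichment, which is a ratio, per the file headers. The submitters' processing notes name HISAT2, featureCounts, FastQC, DESeq2 and the build mm10. Their versions and roles, the use of strand in counting, the peak caller and the pooling of libraries were not found in the labels or headers. Nothing says that libraries came from separate animals, so p-values measure only the spread between these libraries.

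Counts were tested with edgeR 4.0.16 in R 4.3.3 (TMM factors, filterByExpr, quasi-likelihood test, 1 fit of 32 libraries with 28 residual degrees of freedom, Benjamini-Hochberg over 14016 genes, threshold 0.05). SEs of log2 fold changes follow from that test's F, and the common biological coefficient of variation was 0.566. CPM uses TMM library sizes. The script was tested on simulated data. Alternatives were other scaling factors, no filter, DESeq2 1.42.0, limma 3.58.1 (voom with quality weights), the number in the library title as a factor, no libraries under 1 M counts, each library left out, stricter peak folds and overlaps, and a join of peaks by gene span. Symbols matched 52403 of 52636 IDs, and 0 count columns were unmatched.

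Gene names in the peak lists joined peaks to genes, with Python 3.11.15, pandas 2.3.3 and numpy 2.4.6. Covered length is the union of the named peaks. Peaks lay at q-values up to 0.0497 in the Standard and 0.0489 in the ELS list. RefSeq starts and windows are on GRCm38.p6, the assembly behind mm10. Besides the members, named genes were the 2 of each pathway list with the smallest p per comparison, of which the text prints 7, and the 5 genes of at least 10 CPM most like Pde10a. The members, the classes and the lists were chosen with earlier results of these data known.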

Additional observations from a re-analysis of the deposited data

Results flagged for a closer look

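In 10 of 36 combinations of gene and group, the highest of the 8 libraries stood apart from the next. Its gap, as a share of the group's range, was over Dixon's 95% critical value for a gap at either end. At the upper end alone, chance exceeds that value in fewer than 1 in 20 groups of normally spread values. The same gap was present in 23.1% of the 56064 combinations over all 14016 genes tested, beside 27.8% for the members, and genes of 1 library are not independent. In Standard Dot1l overexpression, replicate 8 held 172 CPM of Pde1b (next highest 55.8) and 263 CPM of Pde7b (next 135), and replicate 1 held 179 CPM of Pde4a (next 78.6). In ELS GFP, replicate 2 held 141 CPM of Pde1b (next 61.4) and 215 CPM of Pde7b (next 137). In the libraries labelled ELS Dot1l knockdown, replicate 6 held 383 CPM of Pde7b (next 176), 99.7 CPM of Pde1c (next 49.4) and 192 CPM of Pde8b (next highest library 103). In Standard GFP, replicate 6 held 225 CPM of Pde4a (next 101) and replicate 8 held 222 CPM of Pde8b (next 128).

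The row of ENSMUSG00000030653, which the peak lists pair with Pde2a and which no comparison used, held 402 counts over the 32 libraries, while the row that carries the symbol Pde2a held 0.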

How the results depend on the processing

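No member passed an adjusted p of 0.05 in the 3 comparisons under any alternative, each library left out included. Under the other alternatives no member passed in the test of any difference, and no other pathway gene passed in the 3 comparisons. DESeq2 called 55, 35 and 3 genes of 31051 in the 3 comparisons, and leaving out the libraries under 1 M counts called 7, 18 and 0 of 15149, none of them members. In the test of any difference, 178 genes were called as reported, 901 without a filter on low counts, and 0 with limma voom or with the title number as a factor.

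Signs turned for member values that were smaller than their SE as reported. Pde1a under ELS was 0.10 and Pde4d -0.10 without the libraries under 1 M counts, and Pde4d was -0.008 with relative log expression factors and with DESeq2. Under overexpression Pde4d was 0.032 with limma voom. In the libraries labelled knockdown, Pde1c was 0.038 without the libraries under 1 M counts, Pde4b was -0.011 with limma voom, and Pde8b was -0.030 with relative log expression factors, -0.029 with DESeq2 and -0.084 with limma voom. The cause was not tested.

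Among values of at least 0.4 in size, Pde4a under ELS moved from -0.69 to -0.084 with limma voom and -0.27 with the title number, and from -0.48 to -0.21 under overexpression with limma voom. Pde1c under ELS moved to -0.35 with the title number and -0.90 without the libraries under 1 M counts, and Pde8b to -0.71 with limma voom.

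Leaving out 1 library in turn moved Pde1a from -0.14 to 0.19 and Pde4d from -0.11 to 0.28 under ELS. Under overexpression Pde1c ran from -0.32 to 0.40 and Pde4d from -0.39 to 0.068. In the libraries labelled knockdown Pde7b ran from -0.064 to 0.42, Pde1c from -0.30 to 0.14 and Pde8b from -0.23 to 0.10. Over all such fits Pde4b stayed between -0.61 and -0.47 under ELS and between -0.62 and -0.45 under overexpression.

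Of the members' 557 Standard peaks 294 (52.8%) overlapped an ELS peak, and 274 did when at least 50% of the shorter peak had to be shared. For all Standard peaks these shares were 62.6% and 58.7%. Only peaks at or above the common median fold of 1.94 were then kept. Of the members with such peaks in both lists, 8 of 8 had less length in the ELS list. Among all genes with such peaks in both lists, 7846 of 8488 had less. No paired analysis was possible because RNA replicate numbers only follow the order of the accessions, the number in the library titles is not said to mark a shared animal or day, and the chromatin data are 1 list per group. The fit with that title number as a factor, above, called 0 members. With 4 libraries under 1 M counts, low members such as Pde1c rest on as few as 3 counts.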
